A study of Rattus norvegicus with 9 samples.

Results

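The interferon-stimulated genes described here are Isg15, Mx1, Mx2, Ifit2, Ifit3, Oas1a, Oasl, Irf7, Usp18 and Rsad2, 10 genes of the 23026 in the deposited expression tables. They were taken by gene symbol, all 10 were found, and all 10 passed the filter on low counts that left 16874 genes for testing. mRNA sequencing was performed on bone tissue of female Sprague–Dawley rats, with 9 libraries in 3 groups of 3. Sham rats had sham surgery, OVX rats had both ovaries removed, and both received CMC-Na, the vehicle, by mouth. OVX-AS-IV-High rats had the same ovariectomy and were given astragaloside IV (AS-IV), a saponin of the herb Astragalus membranaceus, at 80 mg/kg by gavage for 8 weeks, starting 6 weeks after surgery. The rats were 8 weeks old when purchased, and 3 of the 5 rats of each group were sequenced. The labels list 1%, 2% and 3% CMC-Na for Sham replicates 1, 2 and 3, whereas the study's methods describe a single vehicle of 1%, so the Sham libraries were kept as 1 group. Each library held between 34874880 and 37298250 counts, and genes of bone-forming cells, bone-resorbing cells and blood-forming marrow were present in all of them, so the tissue was bone with marrow. In such bulk RNA, fewer cells of a type and less RNA per cell cannot be told apart.

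Type I interferons are cytokines that cells release on sensing foreign or misplaced nucleic acid. They bind a receptor pair on the same and neighbouring cells, kinases of the JAK family then pass the signal to transcription factors, and a complex that contains IRF9 binds short GAAA-rich promoter elements and switches on interferon-stimulated genes. In bone, interferon signaling is known to restrain osteoclast formation and to act on blood-forming marrow cells. A low level of these genes is also kept up without infection.

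The GAAA-rich element is shown first, because it is the promoter feature by which this class of genes is best known. RefSeq promoter sequences of assembly GRCr8, from 250 bases before to 50 bases after each start site, were held for 6 of the 10 genes (Mx1, Ifit3, Oas1a, Oasl, Irf7 and Rsad2). The letters GAAANNGAAA were searched on both strands (TTTCNNTTTC on the other), and were found in 4 of the 6 promoters, against 1312 of 33469 promoters of the same length overall (3.92%). The stretches of 60 bases around the matches follow, 5′ to 3′ on the strand of the gene, with the matched letters in capitals.
Ifit3 (chr1:241527257-241527316, plus strand): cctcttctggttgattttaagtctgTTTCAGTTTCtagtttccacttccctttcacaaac
Oas1a (chr12:41330403-41330462, plus strand): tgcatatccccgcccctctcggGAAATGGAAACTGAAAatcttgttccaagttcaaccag
Irf7 (chr1:205800058-205800117, minus strand): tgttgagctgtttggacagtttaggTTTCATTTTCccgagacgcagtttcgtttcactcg
Rsad2 (chr6:48788233-48788292, minus strand): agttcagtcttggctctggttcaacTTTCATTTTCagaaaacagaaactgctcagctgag
The match began 44 bases before the start site in Ifit3, 69 in Irf7 and 147 in Rsad2, and Oas1a held 2 overlapping matches beginning 41 bases before it. These letters were not in the windows of Mx1 and Oasl. A match describes the sequence only.

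Transcript levels of the genes spanned a wide range. By FPKM, which scales counts by gene length and depth and so allows genes to be compared, Rsad2 was highest with a median of 90.2 over the 9 libraries (64.3 to 117). Irf7 followed with a median FPKM of 32.2 (12.3 to 82.5), and Ifit3 with 10.95 (4.00 to 31.3). Rsad2 was above Irf7 and Irf7 above Ifit3 in 9 of 9 libraries. The median FPKM of the others was 9.43 for Ifit2, 7.75 for Isg15, 6.35 for Oas1a, 4.62 for Oasl, 4.62 for Mx1, 3.62 for Usp18 and 2.51 for Mx2. Every pair of neighbours in this order had overlapping ranges over libraries, and Ifit2 exceeded Isg15 in only 5 of 9 libraries and Mx1 exceeded Usp18 in 4.

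The regulators of the response are given first, as TMM-normalized CPM, the count of a gene relative to the size of its library, in replicates 1, 2 and 3 of each group. Irf7, the transcription factor that amplifies interferon production, was at 66.6, 106 and 112 CPM in Sham. It was at 66.2, 44.5 and 173 CPM in OVX and at 147, 33.6 and 25.9 CPM in OVX-AS-IV-High. OVX replicate 3 and OVX-AS-IV-High replicate 1 lay above all Sham libraries, and the other 4 libraries of these groups lay below all of them. Usp18, the protease that removes ISG15 from proteins and dampens receptor signaling, was at 5.96, 11.4 and 10.5 CPM in Sham, at 6.54, 5.06 and 15.5 CPM in OVX and at 16.3, 6.12 and 2.01 CPM in OVX-AS-IV-High. OVX replicate 3 and OVX-AS-IV-High replicate 1 were again the 2 highest of the 9 libraries. Isg15 encodes the ubiquitin-like protein that is conjugated to other proteins. It was at 5.06, 10.7 and 9.50 CPM in Sham, at 4.88, 3.43 and 16.5 CPM in OVX and at 19.0, 2.52 and 1.43 CPM in OVX-AS-IV-High. In raw counts the Isg15 extremes were 691 in OVX-AS-IV-High replicate 1 and 52 in replicate 3 of the same group.

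The effectors that bind foreign RNA or are activated by it followed a like order. Ifit3, which acts with other IFIT proteins on foreign RNA, was at 22.01, 37.3 and 27.2 CPM in Sham, at 19.4, 17.1 and 47.4 CPM in OVX and at 65.6, 18.4 and 8.16 CPM in OVX-AS-IV-High. Oas1a, a synthetase whose product activates RNase L, was at 6.76, 12.4 and 11.3 CPM in Sham, at 9.21, 8.65 and 25.2 CPM in OVX and at 29.4, 6.77 and 4.37 CPM in OVX-AS-IV-High. In both genes the replicate 3 library of OVX and the replicate 1 library of OVX-AS-IV-High stood above the other 7. Oasl, an OAS-like protein of the same family, was at 9.48, 13.1 and 9.21 CPM in Sham, at 8.91, 7.28 and 19.1 CPM in OVX and at 23.4, 7.15 and 5.88 CPM in OVX-AS-IV-High. Ifit2, another IFIT protein, was at 32.4, 39.8 and 32.4 CPM in Sham, at 31.6, 19.5 and 37.4 CPM in OVX and at 52.4, 29.7 and 23.8 CPM in OVX-AS-IV-High. Ifit2 thus had the same order within OVX-AS-IV-High over a narrower range.

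The Mx proteins are dynamin-like GTPases that act against viruses. Mx1 was at 8.08, 19.0 and 20.6 CPM in Sham, at 17.6, 13.5 and 35.9 CPM in OVX and at 19.9, 9.34 and 8.22 CPM in OVX-AS-IV-High. Mx2 was at 7.12, 30.01 and 12.3 CPM in Sham, at 7.79, 3.69 and 17.4 CPM in OVX and at 12.8, 7.26 and 2.83 CPM in OVX-AS-IV-High. Mx2 was the single gene of the 10 whose highest library was a Sham library, replicate 2, and Mx1 the single one whose lowest was Sham replicate 1. Rsad2, also called viperin, is an enzyme that makes a chain-terminating nucleotide. It was at 330, 376 and 455 CPM in Sham, at 296, 242 and 430 CPM in OVX and at 464, 339 and 349 CPM in OVX-AS-IV-High. Rsad2 had the highest level and the smallest spread, and in OVX-AS-IV-High its lowest library was replicate 2, not replicate 3. Mx1 and Mx2, Ifit2 and Ifit3, and Oas1a with the neighbouring Oas1 genes are related in sequence, so the split of reads within each family is uncertain.

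**Figure D1:**
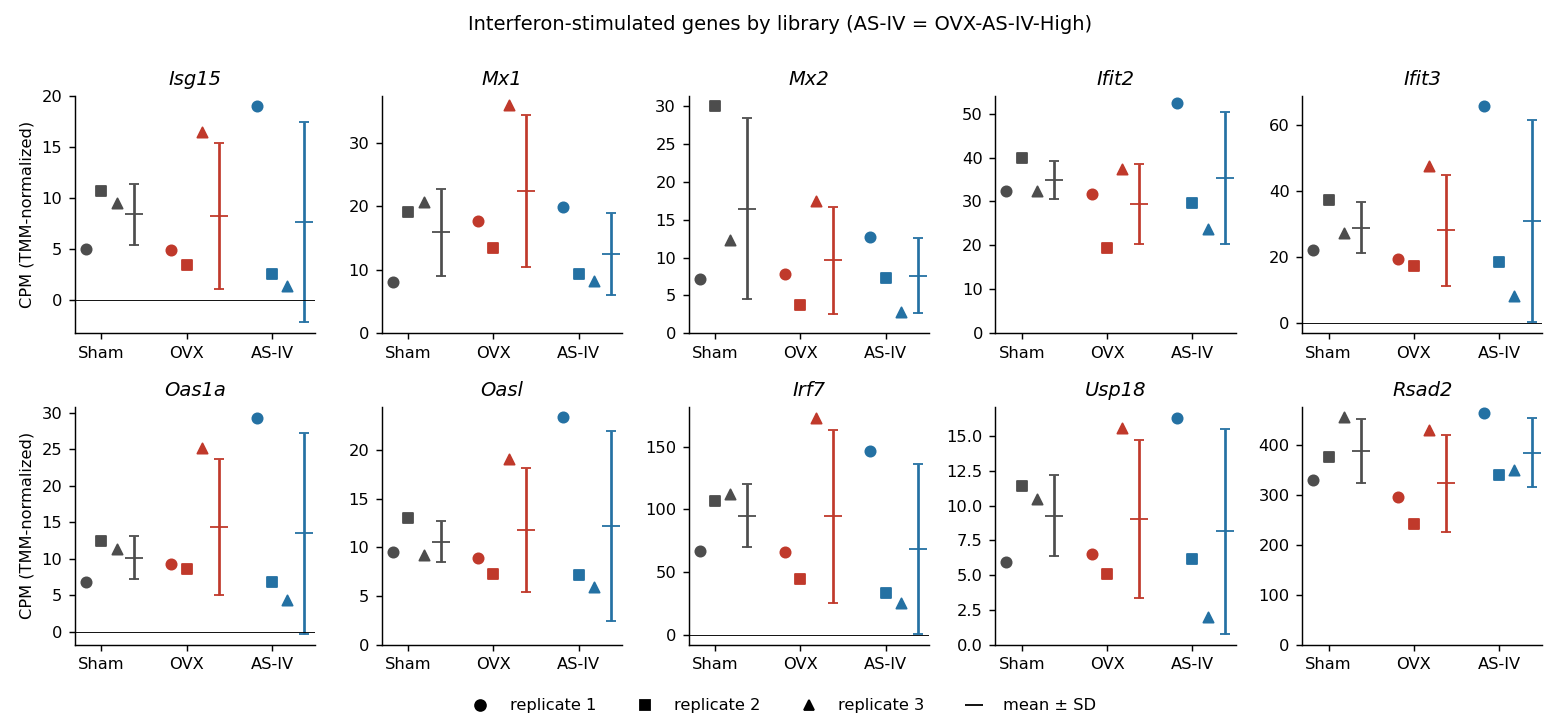
TMM-normalized CPM (y axes, 1 scale per gene) of the 10 interferon-stimulated genes in each library of Sham, OVX and OVX-AS-IV-High, with the group mean and SD (n = 3) to the right of the points. In OVX the replicate 3 library (triangle) and in OVX-AS-IV-High the replicate 1 library (circle) was highest in 10 of 10 genes, and the groups overlapped in each gene.

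The spread between rats of the same group was the main feature of these genes. The highest of the 9 libraries exceeded the lowest 13.3-fold in Isg15, 10.6-fold in Mx2, 8.14-fold in Usp18, 8.04-fold in Ifit3, 6.72-fold in Oas1a, 6.69-fold in Irf7, 4.44-fold in Mx1, 3.98-fold in Oasl, 2.69-fold in Ifit2 and 1.92-fold in Rsad2. The median of these ratios was 6.70, against 1.51 for the 10873 genes at least as abundant as the least abundant of the 10 (mean of 8.12 CPM), and 1.92% of those genes exceeded 6.70. In Isg15, Ifit3, Oas1a, Oasl and Usp18 the extremes of all 9 libraries lay within OVX-AS-IV-High. In the other genes the extremes lay in different groups, so the ratio within a group was smaller. Its largest value was 4.72 in Mx2, 2.66 in Mx1 and 1.78 in Rsad2, each within OVX. Within OVX-AS-IV-High it was 5.66 in Irf7 and 2.20 in Ifit2, the largest for these genes. The biological coefficient of variation (BCV), the relative spread between replicates beyond counting error, had a median of 55.5% over the 10 genes and of 18.7% over all genes tested. It was 73.9% in Isg15, a value above that of 97.9% of the genes tested, and 20.6% in Rsad2, above that of 55.4%. Ifit2, at 26.9%, was the only other one of the 10 below 40%. Among genes of similar average level, the BCV of Rsad2 was above that of 82.2%. By the same measure Ifit2 was above 95.7% and Isg15 above 98.5%. Differences between groups made up little of the total sum of squares in log2 CPM, with a median share of 10.8% over the 10 genes against 32.9% over all genes tested.

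**Figure D2:**
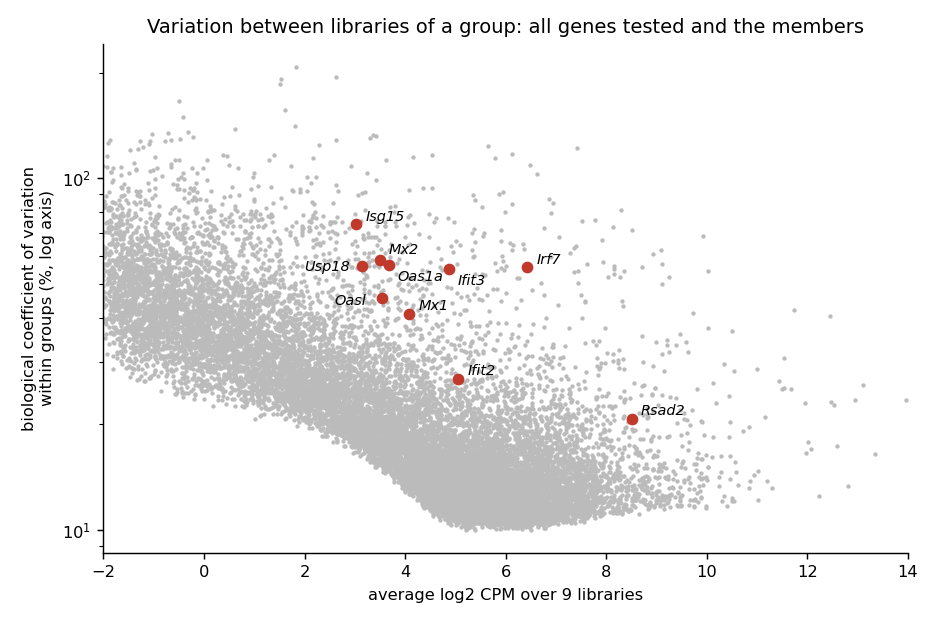
BCV within groups (y axis, percent, log scale) against average log2 CPM over 9 libraries (x axis) for the genes tested (grey; genes below an average log2 CPM of -2 are outside the axis) and the 10 interferon-stimulated genes (red). All 10 lay above the median BCV of 18.7%, from Rsad2 at 20.6% to Isg15 at 73.9%.

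To ask whether ovariectomy altered these genes, OVX was compared with Sham. None of the 10 genes differed beyond the spread between replicates. The mean Isg15 level was 8.43 ± 2.99 CPM in Sham and 8.27 ± 7.16 CPM in OVX (SD, n = 3), a log2FC of -0.03 with a 95% interval from -2.07 to 2.01. Irf7 averaged 95.2 ± 24.9 CPM in Sham and 94.6 ± 68.9 CPM in OVX (SD, n = 3), a log2FC of -0.01 with an interval from -1.53 to 1.51. The log2FC was lowest in Mx2, at -0.77 (SE 0.71), and highest in Oas1a, at 0.50 (SE 0.68), and in Mx1, at 0.49 (SE 0.48). The remaining values were -0.24 in Ifit2, -0.04 in Ifit3, 0.15 in Oasl, -0.04 in Usp18 and -0.26 in Rsad2. By the thresholds of the study's results section (absolute log2FC over 1 with an unadjusted p under 0.05; its methods give 0.58), 0 of 10 genes were DEGs, against 3.11% of all genes tested, and 0 had an unadjusted p under 0.05, against 16.4%. The smallest adjusted p among the 10 was 0.551, in Rsad2 (edgeR quasi-likelihood test, Benjamini-Hochberg), and DESeq2 called 0 of 10 by the same thresholds. Adjusted over all genes, edgeR called 0 genes, while DESeq2 gave 834 genes an adjusted p under 0.05. The groups overlapped in 10 of 10 genes, while 23.3% of all genes tested had groups apart, and exact two-sided permutation tests gave p between 0.4 and 1.0 where 3 against 3 libraries allow 0.1 at the least.

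To ask whether AS-IV altered them, OVX-AS-IV-High was compared with OVX, the same libraries as above serving as the reference. Again 0 of 10 genes were DEGs, against 0.83% of all genes tested, and 0 had an unadjusted p under 0.05, against 6.45%. Mx1 had the largest difference, from 22.3 ± 11.9 CPM in OVX to 12.5 ± 6.46 CPM in OVX-AS-IV-High (SD, n = 3), with a log2FC of -0.84 and a 95% interval from -1.93 to 0.25. Its adjusted p of 0.868 was the smallest of the 10 (edgeR quasi-likelihood test, Benjamini-Hochberg), and its exact permutation p was 0.3. DESeq2 called 0 of 10 here as well. Irf7 averaged 68.7 ± 67.6 CPM in OVX-AS-IV-High (SD, n = 3), a log2FC of -0.46 against OVX with an interval from -1.98 to 1.06. Isg15 averaged 7.66 ± 9.86 CPM (SD, n = 3), a log2FC of -0.11 with an interval from -2.15 to 1.93. The log2FC was -0.34 in Mx2, 0.26 in Ifit2, 0.13 in Ifit3, -0.09 in Oas1a, 0.04 in Oasl, -0.15 in Usp18 and 0.25 in Rsad2. No gene had groups apart, against 12.7% of all genes tested.

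In OVX-AS-IV-High against Sham, which shares its libraries with both comparisons above, 0 of 10 genes were DEGs, against 3.15% of all genes tested, and 0 had an unadjusted p under 0.05, against 17.6%. Mx2 was lowest relative to Sham, at 7.62 ± 4.98 against 16.5 ± 12.0 CPM (SD, n = 3), a log2FC of -1.11 with a 95% interval from -2.71 to 0.49 and an adjusted p of 0.446 (edgeR quasi-likelihood test, Benjamini-Hochberg). The other log2FC values lay between -0.47 in Irf7 and 0.41 in Oas1a. DESeq2 called 0 of 10. Groups were apart in 0 of 10 genes and in 19.9% of all genes tested. In each comparison the median SE of log2FC over the 10 genes was 0.67, against 0.19 over all genes tested, and the 95% interval of 8 of 10 genes reached past an absolute log2FC of 1. Only Ifit2 and Rsad2 had intervals inside an absolute log2FC of 1 in every comparison. For Rsad2 the intervals ran from -0.76 to 0.23 in OVX vs Sham, from -0.25 to 0.75 for AS-IV against OVX and from -0.51 to 0.48 in OVX-AS-IV-High vs Sham.

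**Figure D3:**
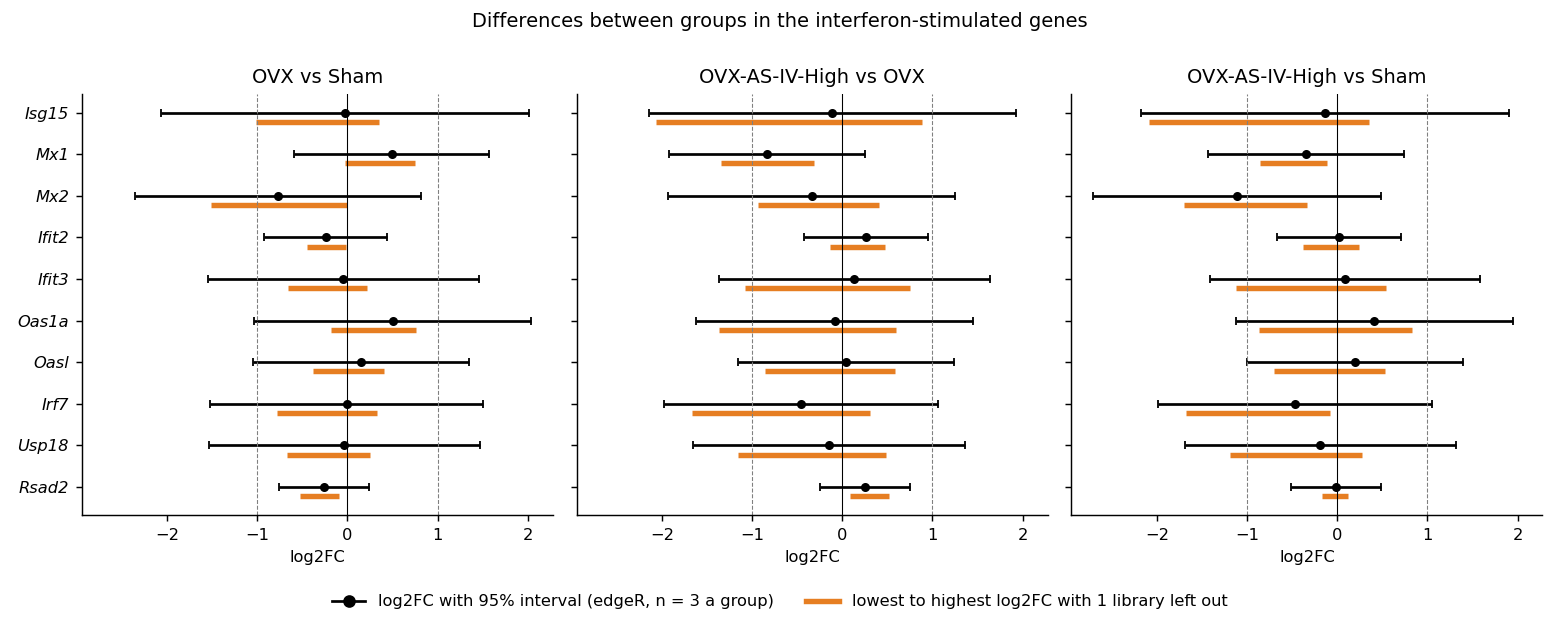
log2FC (x axes) of the 10 interferon-stimulated genes in the 3 comparisons, with 95% intervals (black, edgeR, n = 3 per group) and the range of log2FC when each library was left out in turn (orange). All intervals include 0, and dashed lines mark an absolute log2FC of 1.

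The sign of most of these differences changed when a single library was left out. Without OVX replicate 3, all 10 genes were lower in OVX than in Sham, with log2FC from -1.52 in Mx2 to -0.03 in Mx1. None of them passed both thresholds, although Rsad2 had an unadjusted p of 0.027 there (edgeR, fitted across all genes). Of all genes tested, 50.8% were lower in that fit. Without the same library, 9 of 10 genes were higher after AS-IV than in OVX, against 46.7% of all genes tested, and Rsad2 had a log2FC of 0.51 and an unadjusted p of 0.029 (edgeR, fitted across all genes). Without OVX-AS-IV-High replicate 1, 9 of 10 were lower after AS-IV than in OVX, against 53.7% of all genes, and 4 of them were DEGs, against 0.781% that were DEGs and lower among all genes. These were Isg15 (log2FC -2.07), Irf7 (-1.67), Oas1a (-1.37) and Mx1 (-1.35). Against Sham all 10 were then lower (51.3% of all genes), with Isg15 (log2FC -2.09) and Irf7 (-1.68) as DEGs (4.17% of all genes were DEGs and lower). Both fits left an arm with 2 libraries. OVX replicate 3 and OVX-AS-IV-High replicate 1 were each the highest of their group in 10 of 10 genes. Leaving either out thus lowers its group in these genes by construction, so the shares of all genes are not a like reference. The labels and methods give no reason to leave out either library.

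The genes moved together from library to library. Over the 45 pairs of the 10 genes, Pearson's r of log2 CPM over the 9 libraries had a median of 0.830 and ranged from 0.499 to 0.989, with 26 pairs above 0.8. After group means were removed the median was 0.892. With each library left out in turn the median lay between 0.802 and 0.856. These values describe 1 set of 9 libraries and their normalization, which all pairs share. Averaged over the 10 genes, log2 CPM relative to each gene's own mean was -0.29, 0.56 and 0.31 in Sham replicates 1, 2 and 3. The same average was -0.16, -0.61 and 0.95 in OVX, and it was 0.98, -0.54 and -1.20 after AS-IV. OVX-AS-IV-High replicate 1 was the highest of all 9 libraries in 7 genes and OVX replicate 3 in 2, while OVX-AS-IV-High replicate 3 was the lowest in 7. Isg15 had the closest tie to the rest, with a median r of 0.933 to the other 9 genes, and Rsad2 the loosest, at 0.625.

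The 8 other genes whose log2 CPM was most like the mean profile of the 10, by Pearson's r over 9 libraries, were Parp12 (0.984), Ifi44 (0.975), Eif2ak2 (0.969), Oas1b (0.958), Dhx58 (0.953), Oas2 (0.953), Xaf1 (0.948) and Samd9 (0.945). Without OVX replicate 3 and OVX-AS-IV-High replicate 1, r over the other 7 libraries stayed between 0.884 in Xaf1 and 0.966 in Parp12. Oas2, a further oligoadenylate synthetase, ranged 12.1-fold, from 0.632 CPM in OVX-AS-IV-High replicate 3 to 7.65 CPM in OVX-AS-IV-High replicate 1. Eif2ak2, the RNA-activated kinase PKR, ranged only 2.06-fold, from 37.9 to 78.2 CPM, and Parp12, an ADP-ribosyltransferase, 1.88-fold, from 16.8 to 31.6 CPM, in nearly the same order of libraries. Of the 16864 genes tested outside the 10, 66 had an r above 0.8 (0.391%), and 24 of these 66 were on the lists of interferon pathway genes, which held 104 tested genes.

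**Figure D4:**
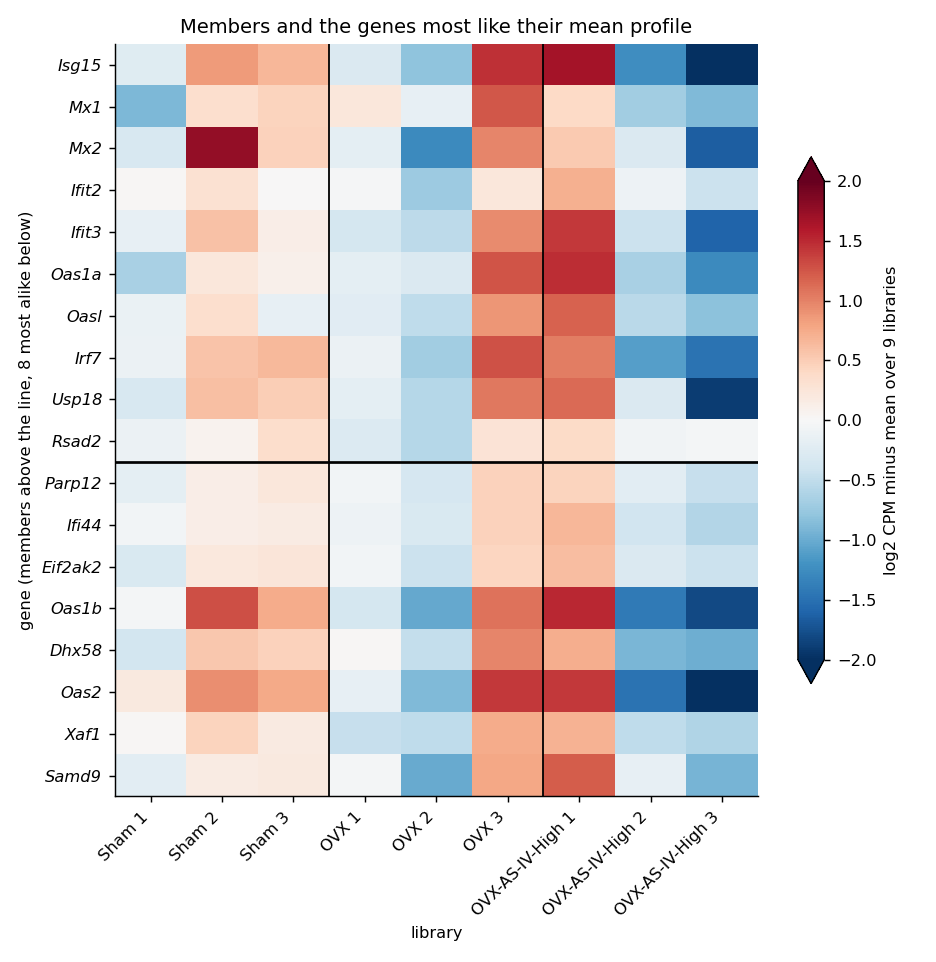
log2 CPM minus each gene's mean over 9 libraries (colour, from -2 to 2) for the 10 interferon-stimulated genes (above the line) and the 8 genes most like their mean profile (below), by library (columns). OVX 3 and OVX-AS-IV-High 1 are high and OVX-AS-IV-High 3 is low in most rows. Parp12, Ifi44 and Eif2ak2 show nearly the same order in paler colours. Rsad2 is also pale, but in OVX-AS-IV-High its lowest library is replicate 2.

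Upstream of these genes, the 4 interferon genes that were analysed were at the limit of detection. Ifna1, Ifne and Ifnk, which encode type I interferons, had 0 or 1 counts in each library, and Ifng, the type II interferon, had 0 to 4. None of the 4 could be tested. The other interferon genes of the list, Ifnb1 and most of the alpha genes among them, were not matched by symbol or synonym to a gene of their own in the deposited data. Their levels could therefore not be assessed. Apart from Ifnlr1, the receptor chains were well expressed and nearly level. Ifnlr1 had 28 to 122 counts and a BCV of 43.6%. Ifnar1, a chain of the type I receptor, had 4158 to 5559 counts and Ifnar2, its partner, 1431 to 1963. Among the 6 receptor genes tested, 0 were DEGs in any comparison and 0 had an r above 0.8 to the profile of the 10 genes. Only Ifngr2, a chain of the interferon-gamma receptor, had an unadjusted p under 0.05 in OVX vs Sham (1 of 6, against 16.4% of all genes tested). Its log2FC was 0.30 (SE 0.09), with an adjusted p of 0.173 (edgeR quasi-likelihood test, Benjamini-Hochberg).

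Of the 12 signal transducers, 0 were DEGs in any comparison. In OVX vs Sham 5 of 12 had an unadjusted p under 0.05 and all 5 were higher in OVX, against 8.16% of all genes tested. Among them were the kinase Jak1 (log2FC 0.41, SE 0.10) and the transcription factors Irf8 (0.45, SE 0.12), Irf5 (0.30, SE 0.09) and Stat2 (0.34, SE 0.12). Irf8 was at 138, 109 and 110 CPM in Sham and at 168, 150 and 171 CPM in OVX, so the groups did not overlap. Its log2FC in OVX-AS-IV-High vs OVX was -0.30 (SE 0.12). Adjusted p-values were 0.151 for Jak1 and 0.153 for Irf8 in OVX vs Sham (edgeR quasi-likelihood test, Benjamini-Hochberg). None of the 12 transducers had an r above 0.8 to the profile of the 10 genes, and their median r was 0.126. An r above 0.5 was found in 3 of them (25%), against 5.6% of all other genes.

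Of the 16 sensors and adaptors, which detect nucleic acid, 0 were DEGs in any comparison. Dhx58 and Eif2ak2 were the 2 with an r above 0.8 (12.5%), against 0.391% of all other genes. Sting1, the adaptor of cytosolic DNA sensing, was higher in OVX than in Sham with a log2FC of 0.53 (SE 0.14) and an adjusted p of 0.153 (edgeR quasi-likelihood test, Benjamini-Hochberg). Mavs, the adaptor of cytosolic RNA sensing, was lower, with a log2FC of -0.47 (SE 0.19) and an adjusted p of 0.258 by the same test, and its log2FC in OVX-AS-IV-High vs Sham was -0.42 (SE 0.19). These were the 2 of 16 with an unadjusted p under 0.05 in OVX vs Sham, against 16.4% of all genes tested. Zbp1, a sensor of left-handed nucleic acid, had a log2FC of -1.0 (SE 0.45) that did not reach an unadjusted p under 0.05. Among the 4 enzymes and ligases of ISG15 conjugation, Ube2l6, the conjugating enzyme, had an r of 0.934 and Herc6, a ligase, an r of 0.894. Uba7, the activating enzyme, had an r of 0.443 and Trim25, a ligase that also acts on RIG-I, an r of 0.01. Their levels did not pass the thresholds in any comparison (0 of 4).

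A wider list of 48 tested interferon-stimulated genes moved with the 10 in part. In it 18 genes (37.5%) had an r above 0.8 and 32 (66.7%) an r above 0.5, against 5.6% of all other genes for the latter, and its median BCV was 22.6%. In OVX vs Sham 0 of 48 were DEGs, against 3.11% of all genes tested, and 1 had an unadjusted p under 0.05, against 16.4%, namely Nmi (log2FC 0.28). In OVX-AS-IV-High vs OVX 4 of 48 had an unadjusted p under 0.05 and were lower, against 2.03% of all genes tested. They were Tor3a, Phf11, Bst2 and Shisa5, and 1 of them was a DEG, against 0.83% of all genes. This was Phf11 (log2FC -1.80, SE 0.54), at 17 to 27 counts against 34 to 122. Tor3a, an AAA+ ATPase, gave 702, 588 and 578 counts in Sham replicates 1 to 3, 501, 607 and 605 counts in those of OVX and 299, 368 and 316 counts in those of OVX-AS-IV-High. Each OVX-AS-IV-High library was thus below every other library. Its log2FC was -0.78 (SE 0.14) against OVX and -0.97 (SE 0.14) against Sham, the latter with an adjusted p of 0.0639 (edgeR quasi-likelihood test, Benjamini-Hochberg), just short of the fold threshold. Bst2, or tetherin, which holds budding virus at the cell surface, had a log2FC of -0.58 (SE 0.18) against OVX and -0.76 (SE 0.18) against Sham. Tor3a, with an r of 0.145 to the profile of the 10 genes, and Bst2, with 0.316, did not follow it.

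Genes best known for their response to interferon-gamma showed another pattern. Of 18 tested, 7 had an unadjusted p under 0.05 in OVX vs Sham, and all 7 were higher in OVX, against 8.16% of all genes tested. With each of the 9 libraries left out in turn, an alternative added after the data were seen, the count was 6 to 8. The median log2FC was 0.39 over the 18 genes and -0.01 over all genes tested, and 8 of 18 had all OVX libraries above all Sham libraries, against 12.7% of all genes. Gbp5, a guanylate-binding GTPase, gave 357, 278 and 339 counts in Sham replicates 1 to 3, 599, 794 and 749 counts in those of OVX and 431, 452 and 585 counts in those of OVX-AS-IV-High. It was a DEG in OVX vs Sham with a log2FC of 1.07 (SE 0.17) and an adjusted p of 0.118 (edgeR quasi-likelihood test, Benjamini-Hochberg). Cxcl9, a chemokine for T cells, was the other DEG (log2FC 1.44, SE 0.45), with 17 to 26 counts in each Sham library and 45 to 73 in each OVX library. Gbp7 (log2FC 0.64, SE 0.12) and the immunoproteasome subunits Psmb8 (0.55, SE 0.12) and Psmb9 (0.39, SE 0.08) were higher in OVX without passing the fold threshold.

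In OVX-AS-IV-High vs OVX, which shares the OVX libraries, 17 of the 18 interferon-gamma responsive genes had a log2FC below 0, against 53.3% of all genes tested, and 5 had an unadjusted p under 0.05, all lower (2.03% of all genes), with 0 DEGs. That count was 1 to 5 with a library left out, and 1 without OVX replicate 3 or without OVX-AS-IV-High replicate 2. Gbp5 was at a log2FC of -0.52 (SE 0.17), Psmb9 at -0.23 (SE 0.08), Igtp at -0.48 (SE 0.20) and Ifi47 at -0.36 (SE 0.15). In OVX-AS-IV-High vs Sham 4 of 18 had an unadjusted p under 0.05, all higher, against 17.6% of all genes in either direction. They were Psmb8 (log2FC 0.50, SE 0.12), Gbp5 (0.55, SE 0.17), Gbp7 (0.37, SE 0.12) and Cxcl9 (1.06, SE 0.45). Cxcl9 was the 1 DEG, against 3.15% of all genes. Against OVX, Psmb8 had a log2FC of -0.04 (SE 0.12). Of these 18 genes, 2 (11.1%) had an r above 0.8 to the profile of the 10 interferon-stimulated genes, against 0.391% of all other genes. An r above 0.5 was found in 6 (33.3%), against 5.6% of all other genes, and an r below -0.5 in 2. The list thus followed the profile in part, and the median r of the 18 genes was 0.111. The GAAANNGAAA letters did not set them apart, since they were found in 11 of the 17 promoters held for this list, in 22 of 43 for the wider list of interferon-stimulated genes and in 4 of 6 for the 10.

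**Figure D5:**
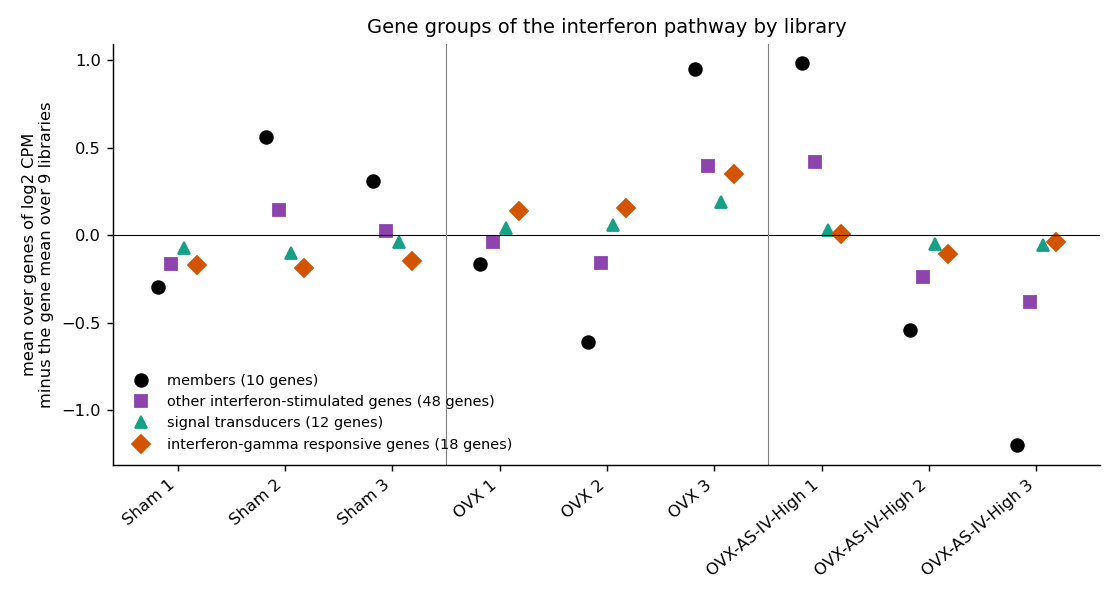
Mean over genes of log2 CPM minus the gene mean (y axis) in each of the 9 libraries (x axis) for the 10 interferon-stimulated genes (black circles), the wider list (48 genes), the signal transducers (12 genes) and the interferon-gamma responsive genes (18 genes). The 10 genes ran from -1.20 to 0.98 with both extremes in OVX-AS-IV-High, whereas all 3 OVX libraries lay above all 3 Sham libraries in the interferon-gamma responsive genes.

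Markers of other cell types that bone with marrow can hold were measured beside these genes. B-lineage markers, all 8 of 8 detected, summed to 633 to 822 CPM in Sham, 1110 to 1141 in OVX and 744 to 1079 in OVX-AS-IV-High, and 7 of 8 had an unadjusted p under 0.05 and were higher in OVX than in Sham, against 8.16% of all genes tested. Monocyte and macrophage markers (12 of 12 detected) summed to 6793 to 7019 CPM in Sham and 8767 to 9625 in OVX. Of these 12, 2 had an unadjusted p under 0.05 and were higher in OVX, against 8.16% of all genes tested. Their average log2 CPM relative to each gene's mean overlapped between groups, at 0.28 in Sham replicate 3 and 0.06 in OVX replicate 1. T and NK cell markers (8 of 8 detected) summed to 110 to 134 CPM in Sham and 148 to 204 in OVX. Of these 8, 1 had an unadjusted p under 0.05 and was higher in OVX, against 8.16% of all genes tested. Their average relative to each gene's mean also overlapped, at -0.250 in Sham replicate 3 and -0.257 in OVX replicate 1. Adipocyte markers (7 of 7 detected) summed to 482 to 682 CPM in Sham and 719 to 944 in OVX, and 6 of 7 had an unadjusted p under 0.05 and were higher in OVX, against 8.16% of all genes tested, 4 of them as DEGs. These sums, and that of plasmacytoid dendritic cell markers given below, moved with the interferon-gamma responsive genes in OVX vs Sham. They also moved with the signal transducers that were higher in OVX. The part of these cell types in both results was not tested.

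For the 10 interferon-stimulated genes, no marker list followed the library profile closely, as r between the log of the summed markers and the profile over the 9 libraries lay between -0.39 for adipocytes and 0.41 for skeletal muscle. Muscle markers (10 of 10 detected) summed to 9502, 6578 and 1714 CPM in Sham, to 3504, 2022 and 1698 CPM in OVX and to 5005, 2246 and 591 CPM in OVX-AS-IV-High. Within OVX-AS-IV-High they had the same order as the 10 genes, and within OVX the library highest in the 10 genes was lowest in muscle markers. Neutrophil markers (8 of 8 detected) were highest in OVX-AS-IV-High replicate 1, at 21446 CPM, and in OVX replicate 3, at 18947 CPM, with 11783 to 16618 CPM in Sham, 13966 to 18947 in OVX and 16251 to 21446 in OVX-AS-IV-High. Plasmacytoid dendritic cells are the best known producers of type I interferon, and their markers (6 of 6 detected) summed to 310 to 431 CPM in Sham, 500 to 579 in OVX and 367 to 481 in OVX-AS-IV-High, with an r of -0.23 to the profile. In OVX vs Sham 2 of these 6 had an unadjusted p under 0.05 and were higher, against 8.16% of all genes tested. Another 2 of the 6 had a log2FC below 0. No defining marker of these lists was at 0 in all libraries, and their part in the levels of the 10 genes was not tested.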

How the data were processed

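The authors checked reads with FASTQC and NGS QC Toolkit, aligned them with Tophat/Bowtie2, quantified genes with eXpress, and deposited whole-number counts and FPKM values per gene, on build mRatBN7.2 per the submitters' processing notes. Whether counting used strand is not given in the sources used here. The FPKM are rescaled counts: among the 11928 genes above a floor of 100 counts everywhere, the ratio of both tables fitted 1 length per gene within 1%. The 3 libraries of a group were separate rats by the study's methods.

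Counts were tested with the edgeR 4.0.16 quasi-likelihood test in R 4.3.3 (TMM, minimum count of 10, all 9 libraries in 1 fit), with Benjamini-Hochberg adjustment over 16874 genes. A DEG was a gene with absolute log2FC over 1 at an unadjusted p under 0.05. Correlations used log2 CPM with a prior count of 2. DESeq2 1.42.0 and limma 3.58.1 on log2(FPKM + 1) were alternatives. The edgeR log2FC compares mean levels, while the exact permutation test compares mean log2 CPM. The scripts were tested on simulated data of OVX vs Sham, in which 200 of 16488 genes were changed 3-fold. At an adjusted p under 0.05, edgeR called 137 changed and 6 unchanged genes, and DESeq2 called 164 and 70. By the DEG thresholds edgeR called 180 changed and 207 unchanged genes.

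Deviations from the group means in same-numbered libraries of OVX and OVX-AS-IV-High had an r of 0.310, 0.158 and 0.130 for replicates 1, 2 and 3. The same r was 0.200, -0.161 and 0.253 for Sham with OVX, and 0.314, -0.158 and 0.435 for Sham with OVX-AS-IV-High. These values have no reference level, so they cannot decide whether same-numbered libraries were paired.

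The 10 genes, the pathway lists and the marker lists were chosen with earlier results of these data known. Named were the 10 genes in every comparison, the 8 genes most like their profile, and, from each pathway list, up to 4 genes with the smallest p in a comparison or all genes of a short list. RefSeq promoters (GRCr8) were matched by gene identifier.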

Additional observations from a re-analysis of the deposited data

How the results depend on the processing

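Over the 10 genes, 3 comparisons and 16 alternatives, 413 of 480 log2FC values kept their direction and 67 changed it, 51 of them with a library left out. Of the 480, 6 passed the thresholds, all without OVX-AS-IV-High replicate 1. With 1 library left out at a time, log2FC in OVX vs Sham ran, from lowest to highest, in Isg15 -1.02 to 0.34, Mx1 -0.032 to 0.75, Mx2 -1.52 to -0.004, Ifit2 -0.45 to -0.014, Ifit3 -0.66 to 0.21, Oas1a -0.18 to 0.76, Oasl -0.38 to 0.41, Irf7 -0.78 to 0.33, Usp18 -0.67 to 0.25 and Rsad2 -0.53 to -0.092. For OVX-AS-IV-High vs OVX, ranges were Isg15 -2.07 to 0.88, Mx1 -1.35 to -0.31, Mx2 -0.93 to 0.41, Ifit2 -0.14 to 0.48, Ifit3 -1.08 to 0.75, Oas1a -1.37 to 0.60, Oasl -0.85 to 0.58, Irf7 -1.67 to 0.31, Usp18 -1.16 to 0.49 and Rsad2 0.081 to 0.51. In OVX-AS-IV-High vs Sham they were Isg15 -2.09 to 0.35, Mx1 -0.86 to -0.11, Mx2 -1.71 to -0.34, Ifit2 -0.38 to 0.24, Ifit3 -1.12 to 0.54, Oas1a -0.86 to 0.83, Oasl -0.70 to 0.53, Irf7 -1.68 to -0.078, Usp18 -1.19 to 0.28 and Rsad2 -0.17 to 0.12. The count of the 10 genes past the thresholds ranged from 0 to 4 in OVX-AS-IV-High vs OVX, from 0 to 2 in OVX-AS-IV-High vs Sham, and stayed at 0 in OVX vs Sham. Each left-out fit assumes that the remaining libraries of an arm vary like the other groups.

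The replicate block changed no call among the 10 genes. Under the block, log2FC in OVX-AS-IV-High vs OVX became -0.044 in Ifit3 and -0.066 in Oasl, and in OVX-AS-IV-High vs Sham -0.042 in Ifit2 and -0.13 in Ifit3. With limma on log2(FPKM + 1), which compares mean logs, it became -0.21 in Ifit3 and -0.11 in Oasl against OVX, and -0.054 in Ifit2, -0.33 in Ifit3 and -0.036 in Oasl against Sham. With log2(FPKM + 0.1) it became -0.26 in Ifit3 and -0.14 in Oasl against OVX, and -0.065 in Ifit2, -0.40 in Ifit3, -0.043 in Oas1a and -0.074 in Oasl against Sham. Fitting only OVX-AS-IV-High and Sham gave 0.0066 in Rsad2. The cause of these changes of sign around 0 was not tested.

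Over all genes tested, the 525 DEGs of OVX vs Sham became 1174 with an absolute log2FC over 0.58, 791 without the low-count filter, 75 and 315 with limma at pseudocounts of 1 and 0.1, and 387 to 1064 with a library left out. The 140 DEGs of OVX-AS-IV-High vs OVX became 369, 274, 13, 80 and 141 to 219 under the same alternatives, and 153 under the replicate block. The 531 DEGs of OVX-AS-IV-High vs Sham became 1167, 769, 84, 353 and 409 to 940. An adjusted p under 0.05 was given to 834, 37 and 1009 genes by DESeq2 and to 21, 0 and 58 under the replicate block, in the same order of comparisons, against 0 in each by edgeR without it. The median r over the 45 pairs lay between 0.802 and 0.856 with a library left out, an alternative added after the data were seen.

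Each of the 10 genes had at least 52 counts in each library, so the comparisons were limited by the spread between 3 libraries a group, with a median SE of 0.67, more than by depth.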
